A study of Mus musculus with 18 samples.

Results

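Dystrophin, its membrane partners and the laminin receptors tie the contractile apparatus of a muscle fibre to the basement membrane around it. The genes described here are Dmd, Utrn, Dag1, Sgca, Sgcb, Sgcd, Itga7 and Lama2, a list chosen with earlier results of these data known. They make up 8 of the 20922 genes in the authors' deposited table, and all 8 were high enough to be tested among 12262 genes with a mean of at least 10 normalized counts. RNA was sequenced from the tibialis anterior, a muscle at the front of the lower hindlimb, of mice whose femoral artery had been ligated on 1 side as a model of peripheral artery disease. Muscles were taken on day 36 after surgery, from the ligated limb (labelled PAD) and from the intact limb of the other side. All mice carried Bmal1 fx/fx, the floxed clock gene, from a cross with ACTA-rtTA-TRE-Cre mice, in which a skeletal actin promoter drives a Cre recombinase that depends on doxycycline. Doxycycline given by oral gavage before the operation set off the deletion of Bmal1 in skeletal muscle. The groups were ligated (4 libraries) and intact (5 libraries) muscle of the knockout, called BKO, and ligated (4 libraries) and intact (5 libraries) muscle of the controls, called WT. The labels give the Cre genotype as ACTA-rtTA-TRE-Cre +/+ beside control and -/- beside knockout mice, so which genotype is which was taken from the group names. The sources used here give neither the age of the mice nor the time of day of collection. Whether each library is a different mouse is not stated, so the p-values speak of the spread between these samples, which may be technical.

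Depth was 14089381 to 25629204 reads per library. The mitochondrial ribosomal RNA mt-Rnr2 took 40.9 to 55.5% of the reads in ligated and 33.6 to 36.1% in intact BKO muscle, and 38.1 to 45.3% in ligated and 31.9 to 34.3% in intact WT muscle. Its share therefore did not overlap between the limbs of either genotype, and its part and that of ligation cannot be told apart by groups alone. The 2 ligated BKO libraries with the highest shares, 51.9 and 55.5%, are libraries 4 and 5, and results that rest on them are given with and without them. The transcripts of Bmal1 (symbol Arntl) were 63.8 to 82.0 normalized counts in ligated and 42.4 to 61.1 in intact BKO muscle, against 12.2 to 18.3 in ligated and 41.3 to 68.4 in intact WT muscle. The total over a gene does not show a deleted exon, and the sources used here do not name that exon, so this does not check the labels. Dbp, a gene activated by BMAL1 and CLOCK, had 226 to 346 normalized counts in ligated and 178 to 233 in intact BKO muscle, against 682 to 867 in ligated and 601 to 791 in intact WT muscle. All 11 myofibre markers were above 0 in every library. Their sum was 1294000 to 1628000 normalized counts in ligated and 1797000 to 2197000 in intact BKO muscle, and 1394000 to 1646000 in ligated and 1869000 to 2311000 in intact WT muscle. In whole muscle, fewer cells of a type and less RNA per cell cannot be told apart.

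The dystrophin complex runs from the cytoskeleton through the membrane to the matrix. Dystrophin binds actin inside the fibre and beta-dystroglycan in the membrane, alpha-dystroglycan binds laminin outside, and the sarcoglycans hold dystroglycan in place. Utrophin is a relative of dystrophin that can take the same position, and integrin alpha 7 beta 1 is a separate laminin receptor. Loss of dystrophin, of a sarcoglycan or of the laminin alpha 2 chain causes muscular dystrophy in mice and people.

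BMAL1 with CLOCK binds the E-box CACGTG, a form of the general E-box CANNTG that myogenic factors also bind. RefSeq (build GRCm38.p6) gave start sites for 7 of the 8 genes, with 9 windows, and the 250 bases before each start were searched on both strands. The windows of Dmd and Sgca are shown because these genes went in opposite directions in ligated BKO muscle, and those of Sgcd and Utrn because they were the 2 windows with CACGTG. Capitals mark CANNTG, of which CACGTG is one form, and each sequence reads 5′ to 3′ on the strand of its gene.
Dmd, chrX:82948620-82948869, plus strand: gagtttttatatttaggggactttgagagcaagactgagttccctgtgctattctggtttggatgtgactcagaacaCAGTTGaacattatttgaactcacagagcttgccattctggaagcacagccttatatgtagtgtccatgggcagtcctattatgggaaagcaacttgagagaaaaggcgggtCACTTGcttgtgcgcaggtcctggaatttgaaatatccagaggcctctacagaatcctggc
Sgca, chr11:94976328-94976577, minus strand: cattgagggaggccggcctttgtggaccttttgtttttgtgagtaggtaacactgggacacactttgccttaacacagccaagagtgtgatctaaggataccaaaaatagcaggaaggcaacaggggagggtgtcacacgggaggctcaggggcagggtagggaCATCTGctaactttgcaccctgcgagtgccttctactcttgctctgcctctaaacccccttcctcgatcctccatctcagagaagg
Sgcd, chr11:47379326-47379575, minus strand: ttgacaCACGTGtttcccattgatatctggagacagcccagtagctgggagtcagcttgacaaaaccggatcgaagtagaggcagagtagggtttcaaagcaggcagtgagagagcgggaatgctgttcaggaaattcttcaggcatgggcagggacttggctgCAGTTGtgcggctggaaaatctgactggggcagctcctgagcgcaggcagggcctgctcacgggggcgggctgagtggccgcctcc
Utrn, chr10:12861736-12861985, minus strand: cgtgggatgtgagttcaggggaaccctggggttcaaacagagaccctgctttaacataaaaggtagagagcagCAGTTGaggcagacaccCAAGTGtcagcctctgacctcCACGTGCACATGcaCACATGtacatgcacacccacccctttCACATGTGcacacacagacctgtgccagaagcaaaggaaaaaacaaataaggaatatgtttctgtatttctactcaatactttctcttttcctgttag

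CACGTG lay 244 bases before the annotated start in the Sgcd window and 139 bases before it in the Utrn window. Both of these starts are inside the gene as GENCODE draws it, by 609644 bases for Sgcd and 7630 bases for Utrn, so they may not be the starts used in this muscle. Of all 32851 RefSeq windows of this length, 6.02% held CACGTG and 66.2% held CANNTG. The Dmd window held CANNTG at 2 places and the Sgca window at 1. The windows of the members are a description of letters and were not set against any binding data.

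Levels between genes are compared per kilobase (kb) of the longest annotated transcript, since the deposited counts are not corrected for length. In intact WT muscle the order ran from Sgca, with 636 ± 73.7 normalized counts per kb (SD, n = 5), through Dag1 with 448 ± 46.0, Dmd with 276 ± 25.0 and Sgcb with 196 ± 9.31. Itga7 with 112 ± 15.1, Sgcd with 105 ± 7.30, Lama2 with 93.4 ± 7.40 and Utrn with 62.9 ± 4.34 followed. Itga7 and Sgcd, and Sgcd and Lama2, overlapped within 1 SD of their means, while the other neighbouring pairs in this order did not. In ligated BKO muscle Dmd, with 415 ± 65.2 normalized counts per kb (SD, n = 4), Sgca with 405 ± 76.5 and Dag1 with 373 ± 30.9 lay within their spread of each other at the top. Sgcd was lowest there, with 84.0 ± 4.74 normalized counts per kb, and Utrn next with 106 ± 12.1. These levels rest on 183 to 6706 reads per gene and library.

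**Figure D1:**
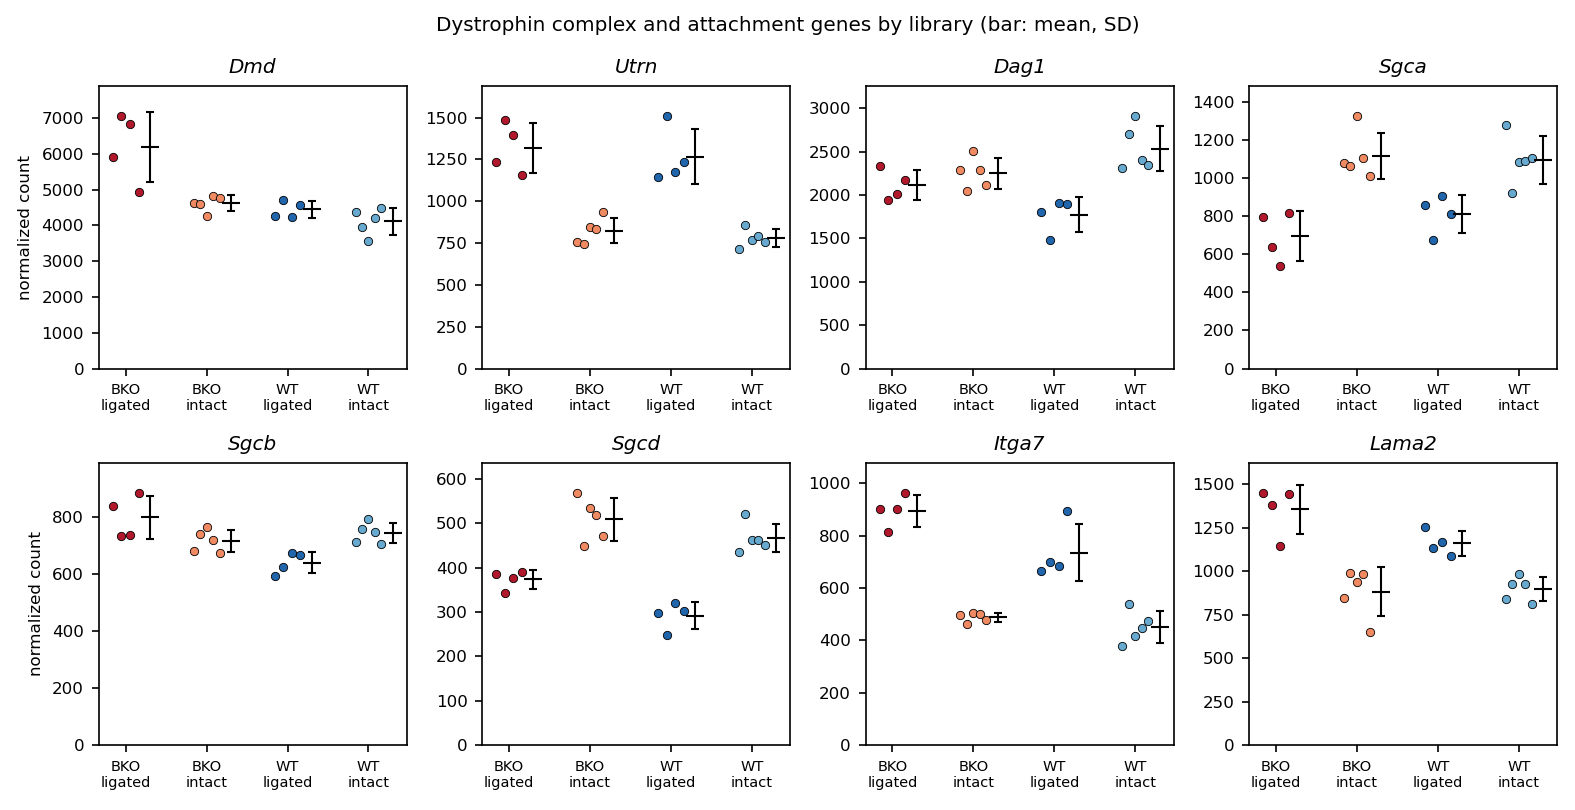
Normalized counts of the 8 genes in every library, 1 panel per gene, with the groups on the x axis and the group mean and SD as bars. Itga7, Lama2 and Utrn were higher in every ligated library than in any intact library of the same genotype, and Sgca and Sgcd lower.

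Ligation moved most of these genes, in both directions. In BKO muscle 4 of the 8 (Dmd, Utrn, Itga7 and Lama2) rose, where 22.1% of all tested genes did, and 2 (Sgca and Sgcd) fell, where 25.1% did. In WT muscle 3 (Utrn, Itga7 and Lama2) rose, where 18.7% of all tested genes did, and 4 (Dag1, Sgca, Sgcb and Sgcd) fell, where 21.1% did. The threshold was an adjusted p of 0.05 in limma, by Benjamini and Hochberg over all tested genes. The median log2 fold change of the 8 genes was 0.28 in BKO and -0.05 in WT muscle, beside -0.00357 and -0.00251 over all tested genes. With the mt-Rnr2 share of each library as a further term of the fit, a setting chosen after seeing the data, 3 rose and 0 fell in BKO and 3 rose and 2 fell in WT muscle. Of all 12262 tested genes 816 rose and 1047 fell in BKO and 1465 rose and 1690 fell in WT muscle under that setting. Relative to the mean log2 level of the myofibre markers, the median of all genes moved by 0.22 in BKO and 0.21 in WT muscle, and 5 members rose and 2 fell in BKO and 4 rose and 2 fell in WT muscle. Of all tested genes 4101 rose and 1751 fell in BKO and 3760 rose and 1346 fell in WT muscle there.

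**Figure D2:**
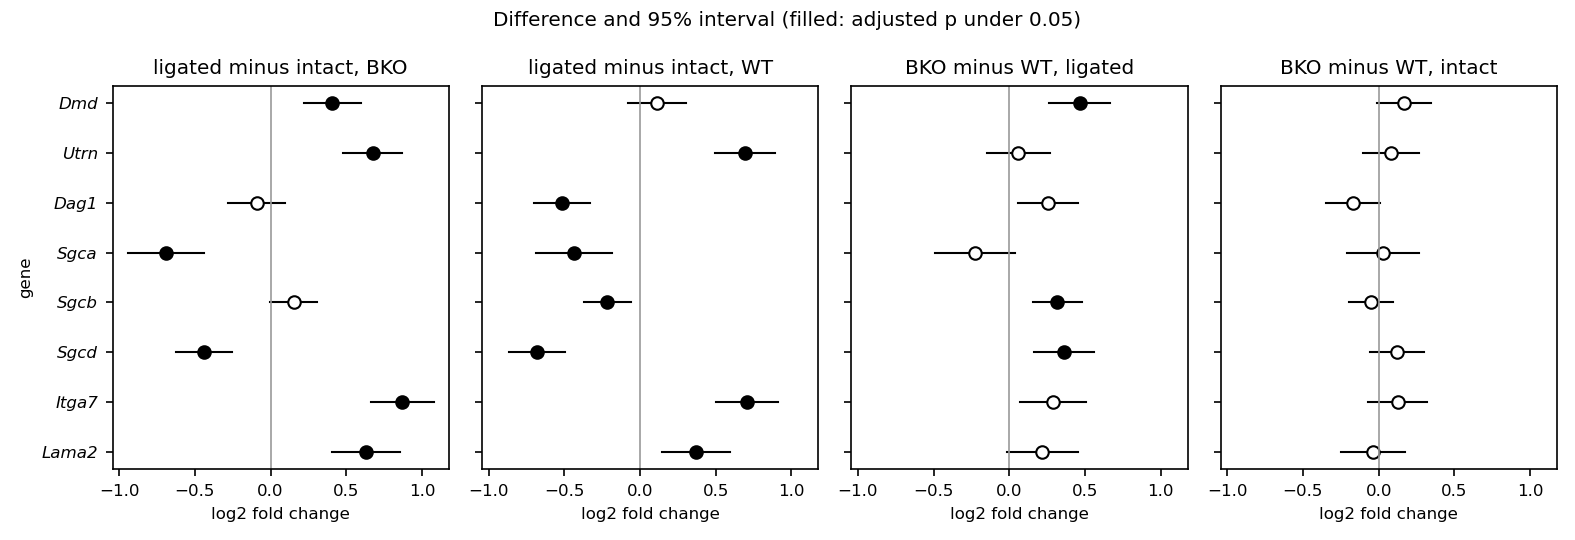
Log2 fold changes of the 8 genes with their 95% intervals from limma, for ligated minus intact muscle in BKO and in WT and for BKO minus WT in ligated and in intact muscle. Filled points passed at an adjusted p under 0.05, and in intact muscle none of the 8 did.

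Lama2 encodes the alpha 2 chain of the laminin that muscle basement membranes are built from (mm10 chromosome 10, 26980036 to 27619758, minus strand). It had 1451, 1382, 1147 and 1442 normalized counts in ligated BKO muscle, against 848, 987, 940.2, 981 and 649 in intact BKO muscle. In WT muscle it had 1256, 1135, 1166 and 1087 in ligated libraries, against 841, 929, 983, 928 and 809 in intact ones. Every ligated library lay above every intact library of its genotype. The log2 fold change was 0.63 ± 0.11 in BKO (1.55-fold, adjusted p = 7.29e-05) and 0.37 ± 0.11 in WT (1.29-fold, adjusted p = 0.00895). With a trend against transcript length removed from each library, the BKO value was 0.41 (adjusted p = 0.00803), and relative to the myofibre markers the WT value was 0.58 (adjusted p = 0.000167). Between genotypes Lama2 did not pass in ligated muscle, where the ranges overlapped and BKO minus WT was 0.22 ± 0.11 (95% interval -0.017 to 0.45).

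Stromal cells make Lama2 RNA as well as fibres, and most markers of fibro-adipogenic progenitors, the main stromal cells of muscle, rose with ligation too. Of 9 such markers, all above 0 in every library, 6 rose and 0 fell in each genotype, where 22.1% of all tested genes rose in BKO and 18.7% in WT. Their sum was 16260 to 23790 normalized counts in ligated and 7588 to 11410 in intact BKO muscle, and 23810 to 25970 in ligated and 10120 to 12750 in intact WT muscle. The median log2 change of the markers with ligation was 0.45 in BKO and 0.79 in WT, beside 0.63 and 0.37 for Lama2. In ligated muscle 3 of the 9 markers were lower and 0 higher in BKO than in WT, where 4.68% of all tested genes were lower. Their median there was -0.27, beside 0.22 ± 0.11 for Lama2. The part of these cells in the Lama2 result was not tested.

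Itga7 encodes the integrin alpha 7 chain, the main laminin-binding integrin chain of mature fibres (chromosome 10, 128933818 to 128958282, plus strand). It rose with ligation in both genotypes, and in BKO muscle by the largest fold of the 8 genes. It had 900.5, 814, 899.8 and 963 normalized counts in ligated BKO muscle, against 496, 461, 504, 501 and 477 in intact BKO muscle. Ligated WT muscle had 664, 698, 683 and 895 normalized counts, against 377, 538, 417, 447 and 473 in intact WT muscle. The limbs did not overlap in either genotype, and library 6 stood above the other ligated WT libraries. On the log2 scale ligation changed Itga7 by 0.87 ± 0.099 in BKO (1.83-fold, adjusted p = 6.85e-07) and 0.71 ± 0.099 in WT (1.63-fold, adjusted p = 1e-05). With the mt-Rnr2 share as a term of the fit they were 0.88 in BKO (adjusted p = 0.00166) and 0.71 in WT muscle (adjusted p = 0.000646). BKO minus WT in ligated muscle was 0.29 ± 0.10 and did not pass (95% interval 0.074 to 0.51, adjusted p = 0.0911). Without WT ligated library 6 it was 0.39 and passed (adjusted p = 0.0209). Of the 18 fits that left out 1 library, this was the only 1 in which it passed. Over those 18 fits it was 0.25 to 0.39 (adjusted p 0.0209 to 0.234).

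Integrin alpha 7 is also made in smooth muscle. For smooth muscle cells and pericytes 8 of 9 markers were tested, and 3 rose and 2 fell with ligation in each genotype. Among all tested genes 22.1% rose and 25.1% fell in BKO, and 18.7% rose and 21.1% fell in WT muscle. The markers summed to 9522 to 10760 normalized counts in ligated and 8010 to 8874 in intact BKO muscle, and 9748 to 12200 in ligated and 8822 to 10870 in intact WT muscle. Cnn1 was at 0 in 1 library, and the part of these cells in the Itga7 result was not tested. An exon of Itga7 overlaps Mettl7b on the opposite strand, which averaged 0.497 normalized counts.

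Dag1 encodes dystroglycan, which is cleaved into the alpha chain that binds laminin and the beta chain in the membrane (chromosome 9, 108204634 to 108263958, minus strand). It fell with ligation in WT muscle. It had 2334, 1941, 2012 and 2170.2 normalized counts in ligated BKO muscle, against 2293, 2049, 2508, 2291 and 2115 in intact BKO muscle, and these ranges overlapped. It had 1809, 1482, 1914 and 1893 in ligated WT muscle, against 2310.1, 2702, 2909, 2399 and 2350.3 in intact WT muscle, with no overlap. The log2 fold change was -0.090 ± 0.090 in BKO (95% interval -0.28 to 0.097, adjusted p = 0.428) and -0.52 ± 0.090 in WT (1.43-fold lower, adjusted p = 0.000122). The BKO value changed sign without the 2 ligated BKO libraries of highest mt-Rnr2 share (0.0033), and it passed as lower with the length trend removed (-0.23, adjusted p = 0.0492). The difference between the genotypes in the ligation effect was 0.42 ± 0.13, which missed the threshold in limma (adjusted p = 0.0522) and met it in edgeR (adjusted p = 0.0442) and DESeq2 (adjusted p = 0.0165). In ligated muscle every BKO library lay above every WT library, by 0.26 ± 0.095 on the log2 scale, which did not pass (adjusted p = 0.103). Relative to the myofibre markers the WT ligation effect was -0.30 (adjusted p = 0.00273).

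Sgca encodes alpha-sarcoglycan, a sarcoglycan of striated muscle (chromosome 11, 94962791 to 94976327, minus strand). It fell with ligation in both genotypes. It had 796, 639, 540.3 and 818 normalized counts in ligated BKO muscle, against 1078, 1062, 1325, 1108 and 1013 in intact BKO muscle. It had 857, 673, 905 and 810.3 in ligated WT muscle, against 1280.2, 921, 1086, 1091 and 1105 in intact WT muscle. All ligated libraries lay below all intact ones of the same genotype. These were log2 fold changes of -0.69 ± 0.12 in BKO (1.61-fold lower, adjusted p = 9.71e-05) and -0.44 ± 0.12 in WT (1.35-fold lower, adjusted p = 0.00685).

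Sgca went down as the mt-Rnr2 share went up. Placed in order of that share, the 8 ligated libraries of both genotypes fell in Sgca without exception, to 540.3 normalized counts in the BKO library at 55.5%, against 905 in the WT library at 38.1%. With the share as a term of the fit, the ligation effect was -0.12 in BKO (adjusted p = 0.602) and -0.059 in WT muscle (adjusted p = 0.736). Relative to the myofibre markers the WT value was -0.22 (adjusted p = 0.0753). The part of the mt-Rnr2 share in the Sgca result cannot be told apart from that of ligation.

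**Figure D3:**
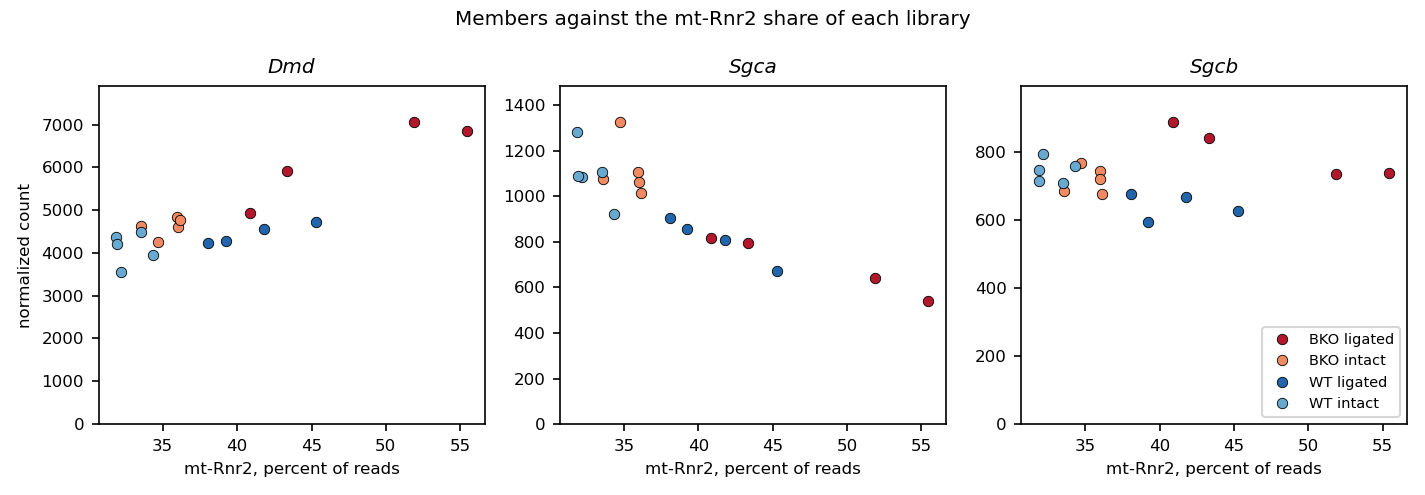
Normalized counts of Dmd, Sgca and Sgcb in each library (y axis) against the percent of its reads from mt-Rnr2 (x axis), 1 point per library, coloured by group. The 2 BKO ligated libraries above 50% had the highest Dmd (7053 and 6849) and the lowest Sgca (639 and 540.3) of all libraries, and lower Sgcb than the other 2 of their group.

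Sgcd encodes delta-sarcoglycan, which cardiac, skeletal and smooth muscle make (chromosome 11, 46896253 to 47988969, minus strand). It had 386, 344, 377 and 390.2 normalized counts in ligated BKO muscle, against 569, 449, 536, 519 and 472 in intact BKO muscle. It had 298, 248, 320.4 and 301 in ligated WT muscle, against 435, 521, 463, 463 and 452 in intact WT muscle. Ligated libraries were below intact ones in both genotypes without overlap, and among ligated libraries every BKO value was above every WT value. The log2 fold change with ligation was -0.44 ± 0.090 in BKO (adjusted p = 0.000444) and -0.68 ± 0.090 in WT (adjusted p = 5.1e-06). The BKO value was -0.26 with the mt-Rnr2 share as a term (adjusted p = 0.251), and the WT value -0.56 (adjusted p = 0.00127). Relative to the myofibre markers the BKO value was -0.22 (adjusted p = 0.0269).

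Sgcb encodes beta-sarcoglycan, which forms the core of the sarcoglycan complex with delta-sarcoglycan (chromosome 5, 73632749 to 73647790, minus strand). It was the member whose ligation effects in the 2 genotypes passed the test of their difference. It had 841, 733, 738 and 886 normalized counts in ligated BKO muscle, against 683, 743, 766, 720.0 and 676 in intact BKO muscle, and the ranges overlapped. It had 594, 627, 675 and 668 in ligated WT muscle, against 712, 758, 793, 746 and 707 in intact WT muscle, with the ligated libraries below. The log2 fold change was 0.15 ± 0.074 in BKO (95% interval -0.0011 to 0.31, adjusted p = 0.0958) and -0.22 ± 0.074 in WT (adjusted p = 0.025). Their difference, BKO minus WT, was 0.37 ± 0.10 (adjusted p = 0.0402), in a comparison that 6.01% of all tested genes passed. Of the 8 members, 1 passed it.

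The Sgcb calls were close to the threshold. The difference in ligation effects no longer passed in 13 of the 18 fits that left out 1 library (range over the 18, 0.32 to 0.41, adjusted p 0.0348 to 0.0968), nor in those without a filter on low values (adjusted p = 0.0583) or with the length trend removed (adjusted p = 0.0713). The fall in WT muscle missed it without WT ligated library 2 (adjusted p = 0.0892), WT ligated library 4 (0.0548) or WT intact library 4 (0.062), and was -0.087 with the mt-Rnr2 share as a term (adjusted p = 0.517) and -0.0034 relative to the myofibre markers (adjusted p = 0.974). The BKO value passed as higher in edgeR (adjusted p = 0.0294), in DESeq2 (adjusted p = 0.0311), without BKO ligated libraries 4 and 5 (0.27, adjusted p = 0.018) and with the mt-Rnr2 share as a term (0.35, adjusted p = 0.0401).

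Dmd encodes dystrophin (chromosome X, 82948870 to 85206141, plus strand). It rose with ligation in BKO muscle and was higher in BKO than in WT ligated muscle. It had 5920.5, 7053, 6849 and 4932 normalized counts in ligated BKO muscle, against 4629, 4609.9, 4264, 4834 and 4768 in intact BKO muscle. It had 4273, 4720.5, 4232 and 4562 in ligated WT muscle, against 4383, 3962, 3554, 4211 and 4487 in intact WT muscle. The 4 ligated BKO libraries lay above all other libraries of the study, with libraries 4 and 5 highest, and the limbs overlapped in WT. The log2 fold change with ligation was 0.41 ± 0.091 in BKO (1.33-fold, adjusted p = 0.000987) and 0.11 ± 0.091 in WT (95% interval -0.076 to 0.30, adjusted p = 0.341). BKO minus WT in ligated muscle was 0.46 ± 0.096 (1.38-fold, adjusted p = 0.00312). The difference between the genotypes in the ligation effect did not pass (0.29 ± 0.13, adjusted p = 0.181).

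Both Dmd calls were lost without the 2 libraries of highest mt-Rnr2 share. In their absence the ligation effect was 0.23 (adjusted p = 0.0694) and BKO minus WT in ligated muscle 0.28 (adjusted p = 0.115), and with the share as a term of the fit they were 0.044 (adjusted p = 0.846) and 0.27 (adjusted p = 0.0907). Dmd has the longest transcript of the 8 genes, 14910 bases against 1724 for Sgca, and with the length trend removed the BKO ligation effect was 0.14 (adjusted p = 0.226). In WT muscle the ligation effect was -0.13 with the share as a term and did not pass, and relative to the myofibre markers it was 0.33 and passed as higher (adjusted p = 0.031), beside 0.63 in BKO muscle.

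Utrn encodes utrophin, which in healthy adult fibres gathers at neuromuscular and myotendinous junctions and is also made in vessels (chromosome 10, 12382188 to 12869365, minus strand). It rose with ligation in both genotypes. It had 1235, 1487, 1396 and 1156 normalized counts in ligated BKO muscle, against 759, 745, 847, 836 and 938 in intact BKO muscle. It had 1146, 1508, 1176 and 1237 in ligated WT muscle, against 715, 859.9, 771, 794 and 754 in intact WT muscle. No ligated library overlapped the intact libraries of its genotype. Utrn changed on the log2 scale by 0.67 ± 0.095 in BKO (1.60-fold, adjusted p = 8.66e-06) and 0.70 ± 0.095 in WT (1.62-fold, adjusted p = 7.15e-06). The difference between them was -0.021 ± 0.13 (95% interval -0.30 to 0.26). With the mt-Rnr2 share as a term the BKO value was 0.32 and no longer passed (adjusted p = 0.102), and the WT value was 0.46 (adjusted p = 0.0022). With the length trend removed the BKO value was 0.42 (adjusted p = 0.000122).

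Most endothelial markers rose with ligation too, as did most markers of fibro-adipogenic progenitors and all 7 adipocyte markers. All 8 endothelial markers were above 0 in every library. With ligation 7 rose in BKO and 6 in WT muscle, where 22.1% and 18.7% of all tested genes did, and 0 fell in either. They summed to 4096 to 5440 normalized counts in ligated and 2423 to 3067 in intact BKO muscle, and 3616 to 4821 in ligated and 2285 to 2866 in intact WT muscle. Their part in the Utrn result was not tested.

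Between the genotypes, 3 of the 8 genes (Dmd, Sgcb and Sgcd) were higher in BKO than in WT ligated muscle, where 4.16% of all tested genes were higher, and 0 were lower, where 4.68% were. The median of the 8 was 0.27 on the log2 scale, beside -0.02 over all tested genes. Sgcb differed by 0.32 ± 0.078 (adjusted p = 0.0125) and Sgcd by 0.36 ± 0.094 (adjusted p = 0.0186). Fitted on the 2 ligated groups alone, Sgcb (adjusted p = 0.0778) and Sgcd (adjusted p = 0.0722) no longer passed, nor did Sgcb without WT ligated library 2 (0.28, adjusted p = 0.0541) or Sgcd without WT ligated library 4 (0.29, adjusted p = 0.0583). Without BKO ligated libraries 4 and 5, Sgcb (0.43, adjusted p = 0.00423) and Sgcd (0.42, adjusted p = 0.0435) still passed, and relative to the myofibre markers they were 0.51 and 0.55. Of those 11 markers, 2 were lower and 0 higher in BKO than in WT ligated muscle, Tcap (-1.89 ± 0.10) and Myot (-0.49 ± 0.115). Myot no longer passed without BKO ligated libraries 4 and 5 (-0.39, adjusted p = 0.098) or with the mt-Rnr2 share as a term (-0.39, adjusted p = 0.119). The other ligated comparisons stood at 0.060 ± 0.10 for Utrn and -0.23 ± 0.13 for Sgca, with intervals of -0.15 to 0.27 and -0.49 to 0.038.

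In intact muscle none of the 8 genes passed between BKO and WT in limma, where 8.56% of all tested genes were higher and 9.75% lower in BKO. At an unadjusted p under 0.05 the count was also 0, as it was at an adjusted p under 0.05 in edgeR and in DESeq2. The smallest unadjusted p was 0.0609, for Dag1 at -0.17 ± 0.085 (95% interval -0.35 to 0.0085), and Dmd stood at 0.17 ± 0.086 (95% interval -0.0092 to 0.35). The interval was widest for Sgca, -0.21 to 0.27, and a value that did not pass does not show that the genotypes were alike. Relative to the myofibre markers, which moved the median of all genes by 0.18 here, Dmd (0.35), Sgcd (0.30) and Itga7 (0.31) passed as higher in BKO. In that setting 2643 of all tested genes were higher and 546 lower. Of the 11 markers themselves, 2 were lower and 0 higher in BKO intact muscle, Tcap (-0.97 ± 0.092) and Ryr1 (-0.86 ± 0.14). The median of the 11 was -0.08, so the scaling carries differences between the genotypes in the markers. With the length trend removed, Dmd (0.30, adjusted p = 0.0165) and Utrn (0.21, adjusted p = 0.0426) passed as higher in BKO, as did 1010 of 12194 genes.

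The log2 ratio of 2 members within a library hardly depends on how the library was scaled. The ratio of Utrn to Dmd was -2.26, -2.24, -2.29 and -2.09 in ligated BKO muscle, against -2.61, -2.63, -2.33, -2.53 and -2.34 in intact BKO muscle. In WT muscle it was -1.90, -1.65, -1.85 and -1.88 in ligated libraries, against -2.61, -2.20, -2.20, -2.41 and -2.57 in intact ones. Ligated libraries were higher without overlap in both genotypes, by 0.27 in BKO and 0.58 in WT, and among ligated libraries all BKO ratios were below all WT ratios, by -0.40 for BKO minus WT. Exact two-sided permutation tests gave p = 0.0159 for each ligation effect and p = 0.0286 for BKO against WT in ligated muscle. Adjusted over 16 tests of 4 ratios these became 0.0508 and 0.0635, so none passed. The smallest adjusted p over the 16 tests was 0.0508. No raw p under 0.0159 is possible with 4 libraries against 5, nor under 0.0286 with 4 against 4. Ratios without overlap were at these floors, so group size and the number of tests limited what could pass.

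The ratio of Lama2 to Dag1, a ligand and its receptor, also stood apart between the limbs. It was -0.68, -0.49, -0.81 and -0.59 in ligated BKO muscle, against -1.43, -1.05, -1.41, -1.22 and -1.70 in intact BKO muscle. It was -0.53, -0.38, -0.72 and -0.80 in ligated WT muscle, against -1.46, -1.54, -1.56, -1.37 and -1.54 in intact WT muscle. The difference was 0.72 in BKO and 0.89 in WT, each with an exact permutation p of 0.0159 (adjusted p = 0.0508). Itga7 to Dmd was higher in ligated muscle by 0.46 in BKO, with overlap, and by 0.59 in WT, without overlap. Sgca to Sgcd was lower in every BKO than in every WT ligated library, by -0.59 (exact permutation p = 0.0286, adjusted p = 0.0635).

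**Figure D4:**
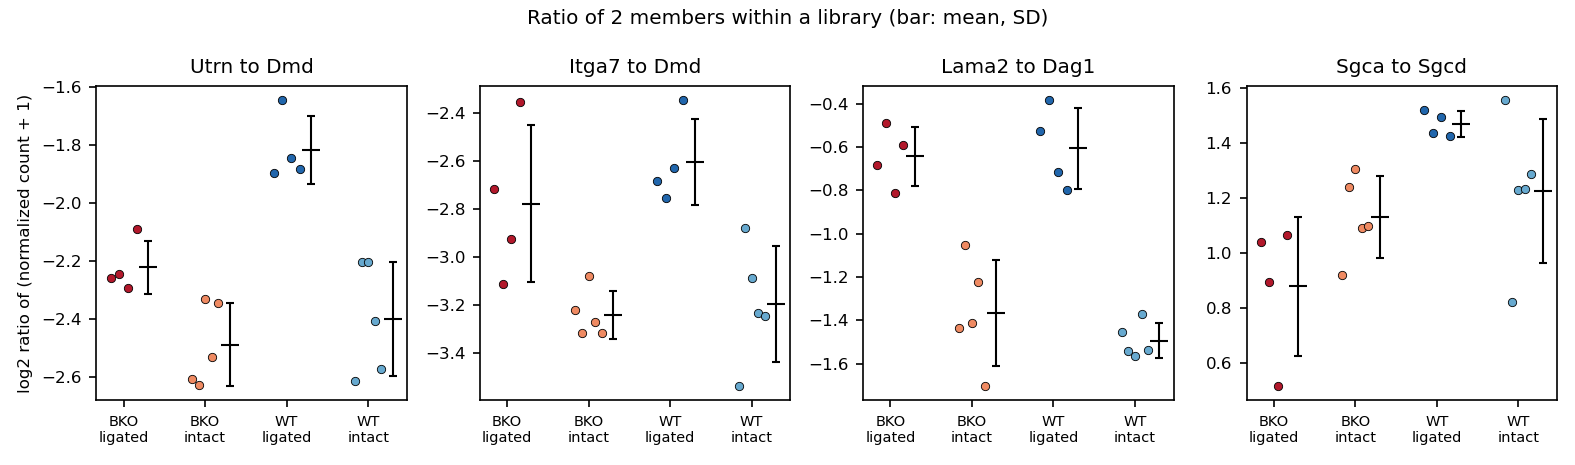
Log2 ratios of 4 pairs of members in each library, 1 panel per pair, with the groups on the x axis and the mean and SD as bars. The Utrn to Dmd ratio was highest in ligated WT muscle (-1.90 to -1.65), with ligated BKO muscle (-2.29 to -2.09) next and no overlap between them.

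The other genes of the pathway were taken as whole lists. Of 12 tested genes among 15 other dystrophin complex proteins, 3 rose and 2 fell with ligation in BKO, and 4 rose and 0 fell in WT muscle. Of all tested genes 22.1% rose and 25.1% fell in BKO, and 18.7% rose and 21.1% fell in WT muscle. Without BKO ligated libraries 4 and 5 the BKO count of the list was 3 higher and 0 lower, beside 1810 and 2240 of all tested genes. Relative to the myofibre markers it was 6 and 0, beside 4101 and 1751 of all tested genes. Sntb1, which encodes the adaptor beta-1-syntrophin, changed by 1.56 ± 0.25 in BKO (adjusted p = 3.93e-05) and 1.86 ± 0.25 in WT (adjusted p = 6.78e-06). Sspn, which encodes sarcospan, had 491 ± 70.0 normalized counts in ligated and 523 ± 19.0 in intact BKO muscle, and 708 ± 49.8 in ligated and 557 ± 48.8 in intact WT muscle (SD, n = 4 ligated and 5 intact). It rose in WT (0.35 ± 0.091, adjusted p = 0.00459), was lower in BKO than in WT ligated muscle (-0.54 ± 0.096, adjusted p = 0.000844), and its ligation effects differed (-0.45 ± 0.13, adjusted p = 0.0424). That difference, without BKO ligated libraries 4 and 5, was -0.29 (adjusted p = 0.222).

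The ankyrins hold dystrophin and dystroglycan at costameres. Ank2 had 1976 ± 447 normalized counts in BKO and 1115 ± 223 in WT ligated muscle (SD, n = 4 each), and 1859.7 ± 246 in BKO and 963 ± 111 in WT intact muscle (SD, n = 5 each). BKO minus WT was 0.82 ± 0.15 in ligated (adjusted p = 0.00102) and 0.95 ± 0.13 in intact muscle (adjusted p = 3.74e-05). Ank3 rose with ligation in BKO (0.50 ± 0.076, adjusted p = 1.97e-05). In WT its ligation effect of 0.17 ± 0.076 missed the threshold in limma (adjusted p = 0.0817) and met it in edgeR (adjusted p = 0.0412) and DESeq2 (adjusted p = 0.0395). The difference between these effects was 0.33 ± 0.11 and did not pass in limma (adjusted p = 0.0693), but did in DESeq2 (adjusted p = 0.0274). Ank3 was higher in BKO than in WT ligated muscle (0.40 ± 0.080, adjusted p = 0.00221). In intact muscle its difference of 0.070 ± 0.072 did not pass (adjusted p = 0.566), but relative to the myofibre markers it was 0.25 and passed (adjusted p = 0.0131). Over the list, 2 genes were higher and 2 lower in BKO than in WT ligated muscle, where 4.16% and 4.68% of all tested genes were. In intact muscle 3 were higher and 1 lower, where 8.56% and 9.75% of all tested genes were. One of the lower ones in ligated muscle was Sntb1 (-0.94 ± 0.26, adjusted p = 0.0287), which was -0.91 without BKO ligated libraries 4 and 5 (adjusted p = 0.162) and -0.93 with the mt-Rnr2 share as a term (adjusted p = 0.131).

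Of 17 tested of 18 enzymes that build the laminin-binding sugar of alpha-dystroglycan, 2 rose and 4 fell with ligation in BKO and 1 rose and 6 fell in WT muscle, with median log2 changes of -0.22 and -0.15. Over all tested genes 22.1% rose and 25.1% fell in BKO, and 18.7% rose and 21.1% fell in WT muscle. Dpm1, a subunit of the enzyme that makes the mannose donor, had 78.9 ± 29.7 normalized counts in ligated and 229 ± 29.3 in intact BKO muscle, and 111 ± 38.5 in ligated and 234 ± 36.1 in intact WT muscle (SD, n = 4 ligated and 5 intact). It fell in BKO (-1.61 ± 0.24, adjusted p = 1.41e-05) and WT (-1.12 ± 0.24, adjusted p = 0.000752). Pomgnt2, another enzyme of this list, fell in BKO (-0.65 ± 0.15, adjusted p = 0.00138) and in WT muscle (-0.68 ± 0.15, adjusted p = 0.00119). B3galnt2, a galactosaminyl transferase of the same sugar chain, changed by -0.068 ± 0.077 in BKO (adjusted p = 0.484) and -0.50 ± 0.077 in WT (adjusted p = 2.62e-05), and these effects differed (0.43 ± 0.11, adjusted p = 0.0217). With the mt-Rnr2 share as a term, 0 rose and 0 fell in BKO and 2 rose and 2 fell in WT muscle, and Dpm1 no longer passed in either genotype. Relative to the myofibre markers 2 rose and 3 fell in each genotype, and the WT median was 0.067.

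All 10 other basement membrane ligands rose with ligation in both genotypes, with median log2 changes of 0.91 in BKO and 0.81 in WT muscle. Of all tested genes 22.1% rose in BKO and 18.7% in WT muscle. Hspg2, which encodes perlecan, had 4733 ± 353 normalized counts in ligated and 2197 ± 219 in intact BKO muscle, and 4927 ± 563 in ligated and 2932 ± 482 in intact WT muscle (SD, n = 4 ligated and 5 intact). Its log2 change was 1.11 ± 0.11 in BKO (adjusted p = 1.24e-07) and 0.76 ± 0.11 in WT (adjusted p = 1.47e-05). Lamc1, the gamma 1 laminin chain, rose by 0.91 ± 0.11 in BKO and 0.57 ± 0.11 in WT, and the nidogen Nid2 by 1.02 ± 0.11 and 0.96 ± 0.11. All 10 also rose in BKO without BKO ligated libraries 4 and 5, and with the mt-Rnr2 share as a term 8 rose in each genotype. In intact muscle 4 of the 10 were lower in BKO than in WT, where 9.75% of all tested genes were. With the length trend removed 1 was, and relative to the myofibre markers 0. In ligated muscle 1, the nidogen Nid1, was lower (-0.46 ± 0.10, adjusted p = 0.00534), where 4.68% of all tested genes were. Without BKO ligated libraries 4 and 5 the Nid1 difference was -0.43 (adjusted p = 0.0608), and relative to the myofibre markers -0.27 (adjusted p = 0.115). With ligation these genes moved in the direction of most stromal and endothelial markers given above, whose part was not tested.

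Of 15 integrin adhesion proteins, 10 rose and 2 fell with ligation in BKO and 7 rose and 1 fell in WT muscle. Among all tested genes 22.1% rose and 25.1% fell in BKO, and 18.7% rose and 21.1% fell in WT muscle. Itga5, the chain of the fibronectin receptor, rose by 1.27 ± 0.17 in BKO (adjusted p = 4.6e-06) and 1.13 ± 0.17 in WT (adjusted p = 2.09e-05), and Itga6, another laminin-binding chain, by 1.05 ± 0.16 and 0.99 ± 0.16. Fermt2, which encodes the integrin activator kindlin-2, fell, with log2 changes of -0.57 ± 0.073 in BKO (adjusted p = 2.9e-06) and -0.53 ± 0.073 in WT (adjusted p = 9.55e-06). Tln2, the talin of mature muscle, was higher in BKO than in WT by 0.70 ± 0.090 in ligated (adjusted p = 1.88e-05) and 0.76 ± 0.081 in intact muscle (adjusted p = 9.88e-07). Without BKO ligated libraries 4 and 5, 7 rose and 2 fell in BKO, where 1810 and 2240 of all tested genes did. With the mt-Rnr2 share as a term 3 rose and 1 fell, where 816 and 1047 of all tested genes did, and Itga6 no longer passed (0.71, adjusted p = 0.0681).

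Of the 10 costamere and filament links, 6 were lower and 0 higher in BKO than in WT intact muscle (4 and 1 relative to the myofibre markers), where 9.75% of all tested genes were lower and 8.56% higher. Plec, which encodes the cytoskeletal linker plectin, had 15509 ± 1705 normalized counts in ligated and 6708 ± 811 in intact BKO muscle, and 15388 ± 1108 in ligated and 11279 ± 1751 in intact WT muscle (SD, n = 4 ligated and 5 intact). Its ligation effect was 1.21 ± 0.11 in BKO and 0.46 ± 0.11 in WT, and these differed by 0.75 ± 0.15 (adjusted p = 0.00807). Synm, the intermediate filament protein synemin, fell with ligation, with log2 changes of -0.62 ± 0.088 in BKO (adjusted p = 9.28e-06) and -0.93 ± 0.088 in WT (adjusted p = 7.73e-08). Over the list 4 rose and 2 fell with ligation in BKO, where 22.1% and 25.1% of all tested genes did. In WT muscle 3 rose and 4 fell, where 18.7% and 21.1% did.

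Of 9 membrane repair proteins, 6 rose and 1 fell with ligation in each genotype. Among all tested genes 22.1% rose and 25.1% fell in BKO, and 18.7% rose and 21.1% fell in WT muscle. The annexins gather at membrane wounds. Anxa1 rose by 1.81 ± 0.16 in BKO (adjusted p = 2.07e-08) and 1.72 ± 0.16 in WT (adjusted p = 4.27e-08), Anxa2 by 1.14 ± 0.094 and 1.36 ± 0.094, and Anxa5 by 0.71 ± 0.11 and 0.95 ± 0.11. S100a10, the partner of annexin A2, rose by 0.91 ± 0.14 and 1.05 ± 0.14. Stromal and immune cells make these proteins too. Of 8 macrophage markers, all above 0 in every library, 0 rose and 1 fell with ligation in BKO, and 4 rose and 1 fell in WT muscle, with sums of 333 to 545 normalized counts in ligated and 289 to 497 in intact BKO muscle and 589 to 750 in ligated and 398 to 589 in intact WT muscle. Their part was not tested. With the mt-Rnr2 share as a term 3 of the 9 repair proteins rose and 0 fell in BKO, where 816 and 1047 of all tested genes did.

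**Figure D5:**
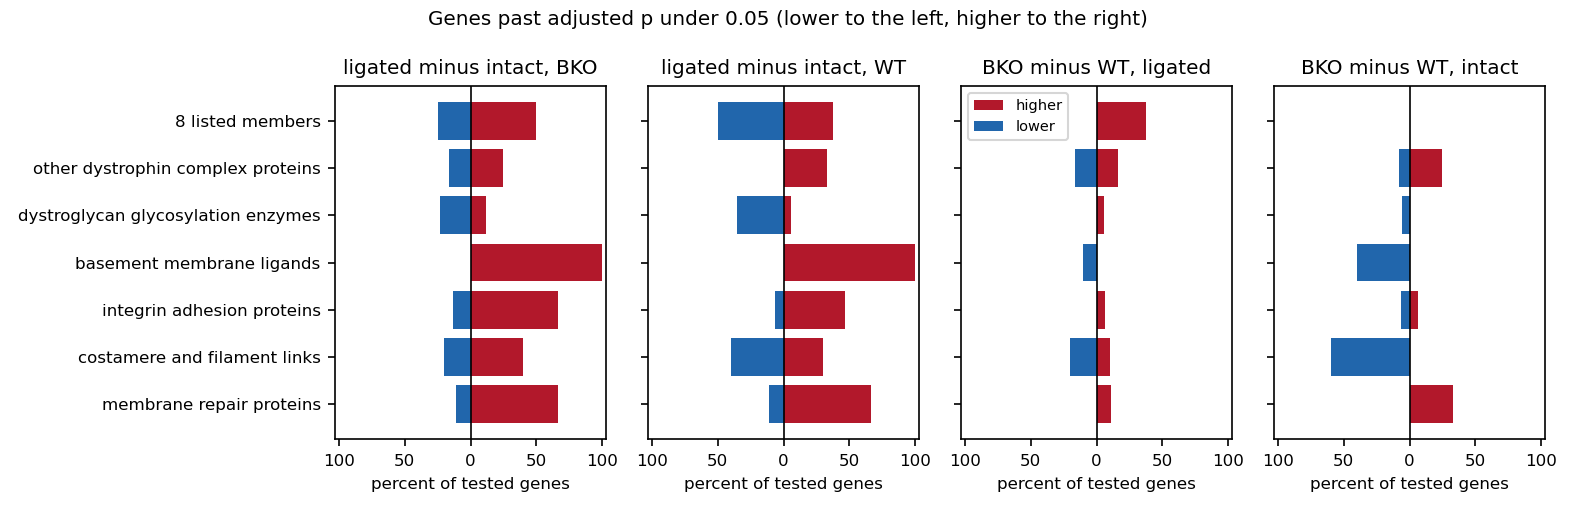
Percent of the tested genes of each list that passed as higher (right of 0) or lower (left of 0), 1 panel per comparison. The basement membrane ligands reach 100% higher with ligation in both genotypes, while the 8 members split between higher and lower.

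Other cell types were measured by their markers. With ligation 22.1% of all tested genes rose and 25.1% fell in BKO, and 18.7% rose and 21.1% fell in WT muscle. All 7 adipocyte markers rose with ligation in each genotype, with sums of 2254 to 5286 normalized counts in ligated and 718 to 822 in intact BKO muscle, and 4604 to 6981 in ligated and 707 to 937 in intact WT muscle (Retn was at 0 in 3 libraries). Of 5 tested of 8 Schwann cell markers 0 rose and 1 fell in BKO and 2 rose and 0 fell in WT muscle, with Ncmap at 0 in 1 library. Of 5 tested of 6 satellite cell markers 3 rose and 1 fell in BKO and 2 rose and 1 fell in WT muscle, with Calcr at 0 in 1 library. The satellite cell marker that fell in BKO was Cdh15 (-0.49 ± 0.15, adjusted p = 0.0125). Without BKO ligated libraries 4 and 5 it was -0.29 and did not pass (adjusted p = 0.23). Of the 11 myofibre markers 2 rose and 7 fell in BKO, and 1 rose and 6 fell in WT muscle.

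The genes whose levels ran most like those of the members were found as the smallest root mean square difference of centred log2 values over the 18 libraries, among 6188 genes with a mean of at least 100. For Dmd these were Rbm39 (0.0967) and Srsf6 (0.123), and for Utrn Msn (0.112) and Ddx17 (0.122). For Dag1 they were Eef1a2 (0.107) and Lmtk2 (0.111), for Sgca Mbnl2 (0.102) and Rpl14 (0.104), and for Sgcb Txnl1 (0.112) and Timm29 (0.113). For Sgcd they were Ppp3ca (0.089) and Nek7 (0.116), for Itga7 Cavin1 (0.143) and Lmna (0.154), and for Lama2 Cpd (0.133) and Phc2 (0.158). None of the 8 members was among the nearest genes of another member.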

How the data were processed

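Stranded libraries of total RNA were trimmed with Trimmomatic 0.33, aligned to mm10 with STAR 2.5.2, quantified with RSEM 1.3.3 and scaled with DESeq2, per the submitters' processing notes. The values the authors deposited are a signal per gene and library that behaves as counts divided by 1 factor per library, and whole reads could be recovered from 100% of them to within 0.001. Of 20922 genes, 20643 had a symbol. Depth was 14089381 to 25629204 recovered reads per library, and the members had 183 to 6706 of them.

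Values were tested as log2(value + 1) with limma 3.58.1 in R 4.3.3, with all 4 groups in 1 fit, no covariate, a mean of at least 10 and Benjamini-Hochberg adjustment over 12262 genes. Fold changes are on that scale. Ratios were tested by exact two-sided permutation (scipy 1.17.1). Recovered reads were also tested with edgeR 4.0.16 and DESeq2 1.42.0. Other settings were pseudocounts of 0.5 and 10, no filter or a mean of at least 50, only the groups compared, a replicate block, each library left out, the 2 ligated BKO libraries with most mt-Rnr2 left out, scaling to the myofibre markers, removal of a length trend in 12194 genes (99.4%) and, chosen after seeing the data, the mt-Rnr2 share as a covariate. Gene lengths and positions are those of GENCODE M21, and promoters those of RefSeq.

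The members and the gene lists were chosen with earlier results of these data known. Of each other list, up to 4 tested genes with the smallest p in any comparison could be named, and for each member the 2 genes nearest to it in log2 level. Some named genes of the lists are not reported here, and Sgcz is not analysed here. Every column of values was used. All pairs of libraries within a group differed by more than counting noise, with a chi-square of 7.35 to 138 for each degree of freedom. The steps were tested on simulated data, where small changes were mostly missed, so a gene that did not pass may still differ.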

Additional observations from a re-analysis of the deposited data

Results flagged for a closer look

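Of the 32 sets formed by the 8 genes in 4 groups, 1 held a library far from the others, where chance gives about 1 in 20. In ligated WT muscle, library 6 had 895 normalized counts of Itga7, against 664, 698 and 683 in the other 3 libraries of that group. Without it, BKO minus WT in ligated muscle was 0.39 on the log2 scale (limma adjusted p = 0.0209), against 0.29 ± 0.10 (adjusted p = 0.0911) with it. Over the 18 fits that left out 1 library the value was 0.25 to 0.39 (adjusted p 0.0209 to 0.234), and it passed in 1.

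The ligation effect on Sgcb differed between the genotypes by 0.37 on the log2 scale (BKO minus WT, limma adjusted p = 0.0402). Ligated BKO libraries had 841, 733, 738 and 886 normalized counts and intact ones 676 to 766, while ligated WT libraries had 594 to 675 and intact ones 707 to 793. Adjusted p was 0.0348 to 0.0968 with 1 library left out.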

How the results depend on the processing

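With 1 library left out, 688 of 720 values of single genes kept their direction and their side of the threshold, and under the other settings 417 of 472 did. With the mt-Rnr2 share as a covariate, chosen after seeing the data, 3 members passed with ligation in BKO, where 1863 of all tested genes did. In the difference of ligation effects 2 members passed there, where 543 of all tested genes did. Values that changed sign there were Dmd with ligation in WT (-0.13), Dag1 with ligation in BKO (0.15), Lama2 in intact muscle (0.0063) and, in ligated muscle, Utrn (-0.13) and Sgca (0.080) for BKO minus WT. Without BKO ligated libraries 4 and 5 they were Dag1 with ligation in BKO (0.0033), Utrn (-0.075) and Sgca (0.000547) for BKO minus WT in ligated muscle, and the ratio of Itga7 to Dmd there (0.069). Relative to the myofibre markers, 3 members passed between genotypes in intact muscle, 6 in ligated muscle and 2 in the difference, where 3189, 1803 and 686 of all tested genes did. Dag1 with ligation in BKO (0.13) and Dag1 (0.014), Sgcb (0.13) and Lama2 (0.14) in intact muscle changed sign in that setting. With the length trend removed, 2 members passed in intact muscle and 0 in the difference, where 2043 and 480 of 12194 genes did. The signs of Sgca (-0.047) and Lama2 (0.086) in intact muscle and of Utrn in ligated muscle (-0.061) for BKO minus WT turned. In that setting 3 ratios passed for ligation (exact permutation, adjusted p = 0.0423), Utrn to Dmd (0.28 in BKO and 0.57 in WT), Itga7 to Dmd (0.70 and 0.59) and Lama2 to Dag1 (0.64 and 0.89). With 4 libraries against 5 no raw p under 0.0159 is possible, so this adjusted p turned on how many of the 16 tests reached that floor. In the difference, 2 members passed with a pseudocount of 10, a mean of at least 50, edgeR or DESeq2, and 0 with no filter. Over all genes the counts in these settings were 794, 828 (of 8557 tested), 762, 1158 and 579 (of 20922 tested), in the same order. With only the groups compared, 1 member passed between genotypes in ligated muscle, where 769 of all 12262 tested genes did. The cause of these shifts was not tested.

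With 1 library left out, 0 to 2 members passed the difference of ligation effects and 2 to 4 passed between genotypes in ligated muscle. Over all tested genes these counts were 402 to 1015 and 733 to 1257. The sign turned within the range for Sgca (-0.035 to 0.086) and Lama2 (-0.085 to 0.066) in intact muscle, Utrn in ligated muscle (-0.000291 to 0.15) and in the difference (-0.081 to 0.065), and the ratios of Itga7 to Dmd in intact muscle (-0.13 to 0.035) and of Lama2 to Dag1 in ligated muscle (-0.10 to 0.036).

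Samples with the same replicate number did not deviate together (correlation -0.0638 to 0.0478 over 7 pairs of limbs and -0.0551 to 0.121 over 8 pairs of genotypes), so the numbers were not used as pairs, although the labels do not say whether equal numbers in the limbs of 1 genotype mark 1 mouse. With a replicate block, 6 members passed with ligation in BKO and 6 in WT, 3 between genotypes in ligated and 0 in intact muscle, and 0 in the difference of ligation effects. Over all 12262 tested genes the counts were 4667 and 4434 with ligation, 1029 and 2021 between genotypes, and 382 in the difference, in the same order. The calls that the block ended included the Sgcb fall with ligation in WT (-0.21, adjusted p = 0.0603). They also included the differences in ligation effect for Sgcb (0.32, adjusted p = 0.179), Sspn (-0.48, adjusted p = 0.119) and B3galnt2 (0.37, adjusted p = 0.176). Sntb1 for BKO minus WT in ligated muscle (-0.94, adjusted p = 0.0677) and Cdh15 with ligation in BKO (-0.42, adjusted p = 0.0791) no longer passed either.

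Over all genes, ligation calls were 1863 in BKO and 3155 in WT with the mt-Rnr2 share as a covariate, against 5790 and 4880 without it. BKO minus WT in ligated muscle gave 1084 calls, against 616 without libraries 4 and 5, 642 with the covariate and 1803 relative to the myofibre markers. The difference gave 737 calls, against 1158 in DESeq2, 382 with a block, 269 without the 2 libraries, 480 with the length trend removed and 402 without WT ligated library 2. Scaling to the myofibre markers gave 4101 higher and 1751 lower with ligation in BKO, 3760 and 1346 in WT, and 1541 and 262 between genotypes in ligated and 2643 and 546 in intact muscle.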
